A study of Homo sapiens with 8 samples.

Results

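The serine/threonine phosphatase subunits described here are 73 of the 19775 genes that had a probe set of their own on the arrays. They were chosen by name, as the genes whose symbols read PPP1 to PPP6 followed by C, R or F. Of 79 such symbols, 5 noncoding RNA genes and 1 pseudogene were left out. The members encode catalytic and regulatory subunits of protein phosphatase 1 (PP1), PP2A, calcineurin, PP4, PP5 and PP6. In the study, Kasumi-1 cells, an acute myeloid leukemia line that carries the AML-ETO translocation, were electroporated with in vitro transcribed RNA, and transcripts were measured 6 h later on Affymetrix U133 Plus 2.0 arrays. One group of 3 arrays received RNA for wild type NR4A1 (NR4A1 WT), a nuclear receptor. A group of 2 arrays received NR4A1 CEAA, in which a zinc finger of the DNA binding domain is altered, and 3 control arrays received GFP. All groups were thus cells of a single line electroporated with exogenous RNA, and cells without electroporation were not analysed here.

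These enzymes remove phosphate groups from serine and threonine residues. A few catalytic subunits serve a large number of regulatory subunits, which determine where in the cell an enzyme sits, which substrates it meets and when it is inhibited. PP2A is assembled from a catalytic, a scaffold and a B-type subunit and is known in myeloid leukemia as a tumor suppressor that inhibitor proteins such as SET and CIP2A can hold inactive, whereas calcineurin responds to calcium and calmodulin and dephosphorylates the NFAT transcription factors.

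All values are log2 intensities after RMA, which subtracts background, brings all arrays to one distribution and combines the probes belonging to a set. The array medians lay between 4.755 and 4.802. Signals were not tested against background, so levels below these medians were not shown to exceed it. This held for the mean of 18 of the 73 members. The differences between 2 arrays had an SD over genes of 0.147 to 0.208 within a group (7 pairs) and of 0.248 to 0.409 between groups (21 pairs). NR4A1 itself read 6.47 to 6.61 with NR4A1 WT, 6.52 to 6.56 with NR4A1 CEAA and 6.28 to 6.58 with GFP on its brightest probe set, whose position relative to the introduced RNA is not known here, so the group labels cannot be checked with it. Of the myeloid blast markers, 7 of 8 were measured. Their summed log2 level was 70.5 to 70.7 with NR4A1 WT, 70.7 to 71.0 with NR4A1 CEAA and 72.2 to 72.8 with GFP, with MPO and KIT above 13 on every array. Relative to GFP, 1 of the 7 was higher and 4 were lower after NR4A1 WT (14.3% and 57.1%, beside 9.97% and 10.3% of all genes), and 1 was higher and 3 were lower after NR4A1 CEAA (14.3% and 42.9%, beside 7.14% and 12.1%). Leaving out 1 array could end the higher calls, CD34 after NR4A1 WT (GFP replicate 1 or 3 or NR4A1 WT replicate 2 or 3, up to 0.0757) and KIT after NR4A1 CEAA (GFP replicate 1 or 3 or either NR4A1 CEAA array, up to 0.11), and the lower call of AZU1 after NR4A1 WT (GFP replicate 2 or 3 or NR4A1 WT replicate 3, up to 0.0596). SPI1, the gene of the myeloid factor PU.1, was lower after NR4A1 WT by 0.97 and after NR4A1 CEAA by 0.55 than with GFP (adjusted p = 7.73e-05 and 0.00458, limma). Of the markers of other cell types, 7 of 9 were measured, with summed levels of 45.0 to 45.3, 45.9 to 46.2 and 45.6 to 46.2 in the same order of groups. CD3E, PAX5, HBB, KRT8 and PECAM1 stayed below 6 on every array, whereas the collagen gene COL1A1 read 7.27 to 7.61 and the epithelial gene EPCAM 11.43 to 11.86. EPCAM was the 1 gene of this list to pass against GFP, after NR4A1 WT (-0.19, adjusted p = 0.0382), a call lost without any 1 array other than NR4A1 WT replicate 1 (0.0545 to 0.124). The part of these shifts in the differences given below was not tested. In these bulk samples, fewer cells of a type and less RNA per cell cannot be told apart.

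Relative to GFP, 13 of the 73 members were higher and 8 were lower after NR4A1 WT (limma, p adjusted by Benjamini-Hochberg over the 19775 genes, threshold 0.05). The higher share of 17.8% stood beside 9.97% of all genes, and the lower share of 11% beside 10.3%. After NR4A1 CEAA, 3 members were higher and 12 lower than with GFP. These were 4.11% and 16.4% of the members, beside 7.14% of all genes higher and 12.1% lower. When the arrays were normalized by quantiles once more, the same comparison gave 7 higher and 11 lower. The share of all genes under that setting was not counted, so these counts cannot be set against 7.14% and 12.1%. Between the NR4A1 groups themselves, 24 members were higher and 4 lower with NR4A1 WT than with NR4A1 CEAA, or 32.9% and 5.48%, beside 18.0% of all genes higher and 13.4% lower. This split was 20 higher to 8 lower after another quantile normalization, again without a count over all genes. The median log2 difference over the members was 0.06 for NR4A1 WT against GFP, beside 0.00 over all genes. It was -0.09 for NR4A1 CEAA against GFP, beside -0.03, and 0.14 for NR4A1 WT against NR4A1 CEAA, beside 0.03. The arrays of the 2 groups did not overlap for 35, 49 and 52 of the 73 members in these 3 comparisons, in the same order. Over all 19775 genes this held for 7036, 10126 and 10489. A lack of overlap, given below for single genes, was thus common with 2 or 3 arrays a group. The comparisons with GFP share the GFP arrays, so they are given side by side and not as independent observations. Neither the labels nor the methods state that the replicates were separate cultures, and all p-values refer to the spread among these arrays alone.

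**Figure D1:**
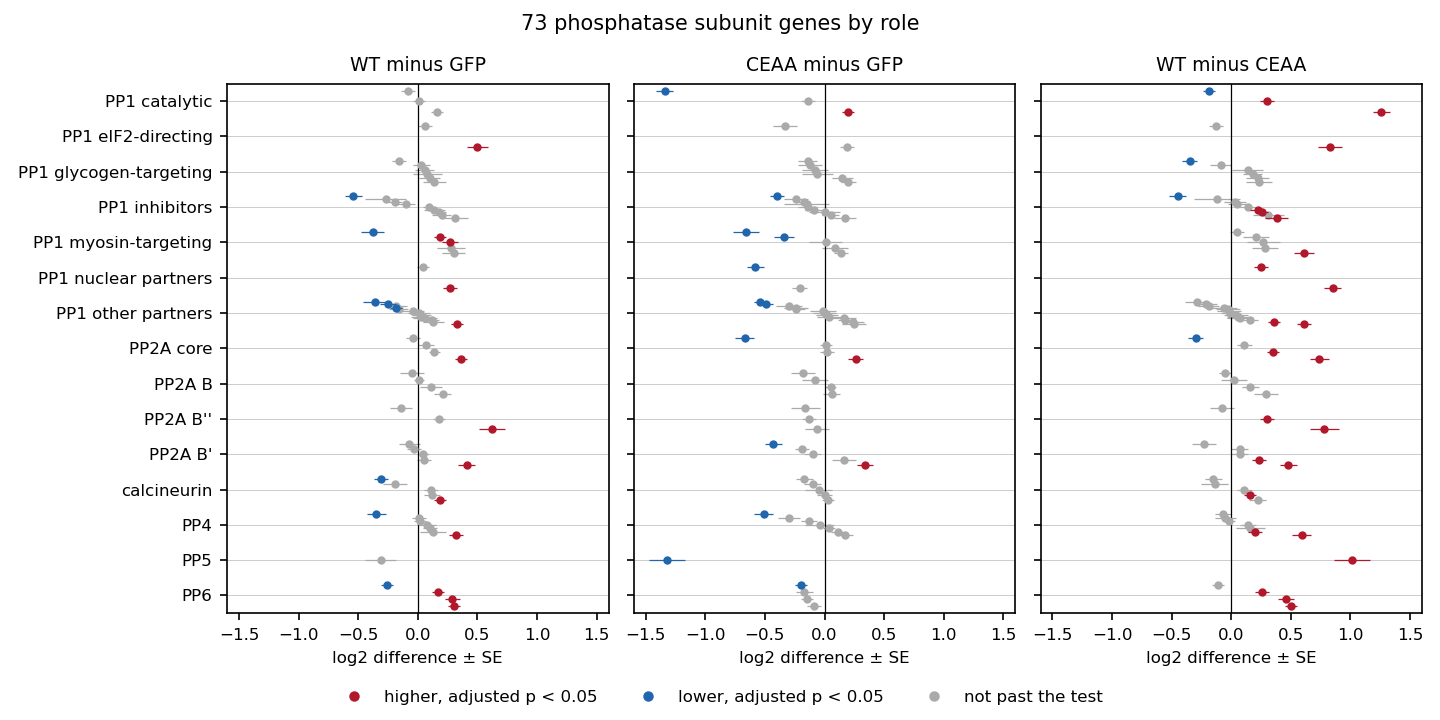
Log2 differences of the 73 members by role, one point per gene with its standard error, for NR4A1 WT minus GFP (left), NR4A1 CEAA minus GFP (middle) and NR4A1 WT minus NR4A1 CEAA (right). Red and blue points passed limma's test, 13 higher and 8 lower on the left, 3 and 12 in the middle, 24 and 4 on the right.

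Rank Product, the test named in the study's methods, called far fewer members. With it 1 member was higher after NR4A1 WT than with GFP (PPP2R3A) and 0 were lower, beside 2.22% and 2.13% of all genes. At an unadjusted p under 0.05, limma gave 32 of the 73 members in either direction, beside 6118 of all 19775 genes. After NR4A1 CEAA it called 0 higher and 4 lower (PPP1CA, PPP5C, PPP2R1A and PPP1R16A), beside 0.455% and 1.36% of all genes. There limma gave 35 members at an unadjusted p under 0.05, beside 6444 of all genes. Between NR4A1 WT and NR4A1 CEAA it called 3 higher (PPP1CA, PPP5C and PPP1R7) and 0 lower, beside 1.77% and 0.946% of all genes. In that comparison limma gave 35 members at an unadjusted p under 0.05, beside 7970 of all genes.

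The PP1 catalytic genes moved in different directions after NR4A1 CEAA. PPP1CA, which encodes the alpha form, read 11.68, 11.82 and 11.76 with NR4A1 WT, 10.44 and 10.53 with NR4A1 CEAA and 11.80, 11.79 and 11.89 with GFP. Both NR4A1 CEAA arrays lay more than 1 log2 unit below every other array, and the NR4A1 WT and GFP arrays overlapped. The log2 difference of NR4A1 CEAA from GFP was -1.34 (SE 0.07, adjusted p = 0.000176, limma), a fold of 0.395, and that of NR4A1 WT from GFP was -0.08 (adjusted p = 0.443). The test of the difference itself gave 1.26 for NR4A1 WT against NR4A1 CEAA (SE 0.07, adjusted p = 1.11e-05). PPP1CA has 1 probe set, so no other probe set bears on it.

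PPP1CB, the beta form that serves myosin phosphatase, read 10.64, 10.76 and 10.75 with NR4A1 WT, 10.42 and 10.42 with NR4A1 CEAA and 10.56, 10.54 and 10.58 with GFP. The 3 groups did not overlap, but only NR4A1 WT against NR4A1 CEAA passed the test (0.30, SE 0.06, adjusted p = 0.00494), and none of its other 3 probe sets did. PPP1CC, the gamma form, read 12.46, 12.49 and 12.40 with NR4A1 WT, 12.63 and 12.65 with NR4A1 CEAA and 12.46, 12.42 and 12.44 with GFP. Here the NR4A1 CEAA arrays were the highest. They exceeded GFP by 0.20 (SE 0.05, adjusted p = 0.0346), which no longer passed without any 1 of the GFP or NR4A1 CEAA arrays (adjusted p up to 0.16). NR4A1 WT was lower than NR4A1 CEAA by 0.19 (adjusted p = 0.0268), which ended without NR4A1 WT replicate 3 or either NR4A1 CEAA array (adjusted p up to 0.129).

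**Figure D2:**
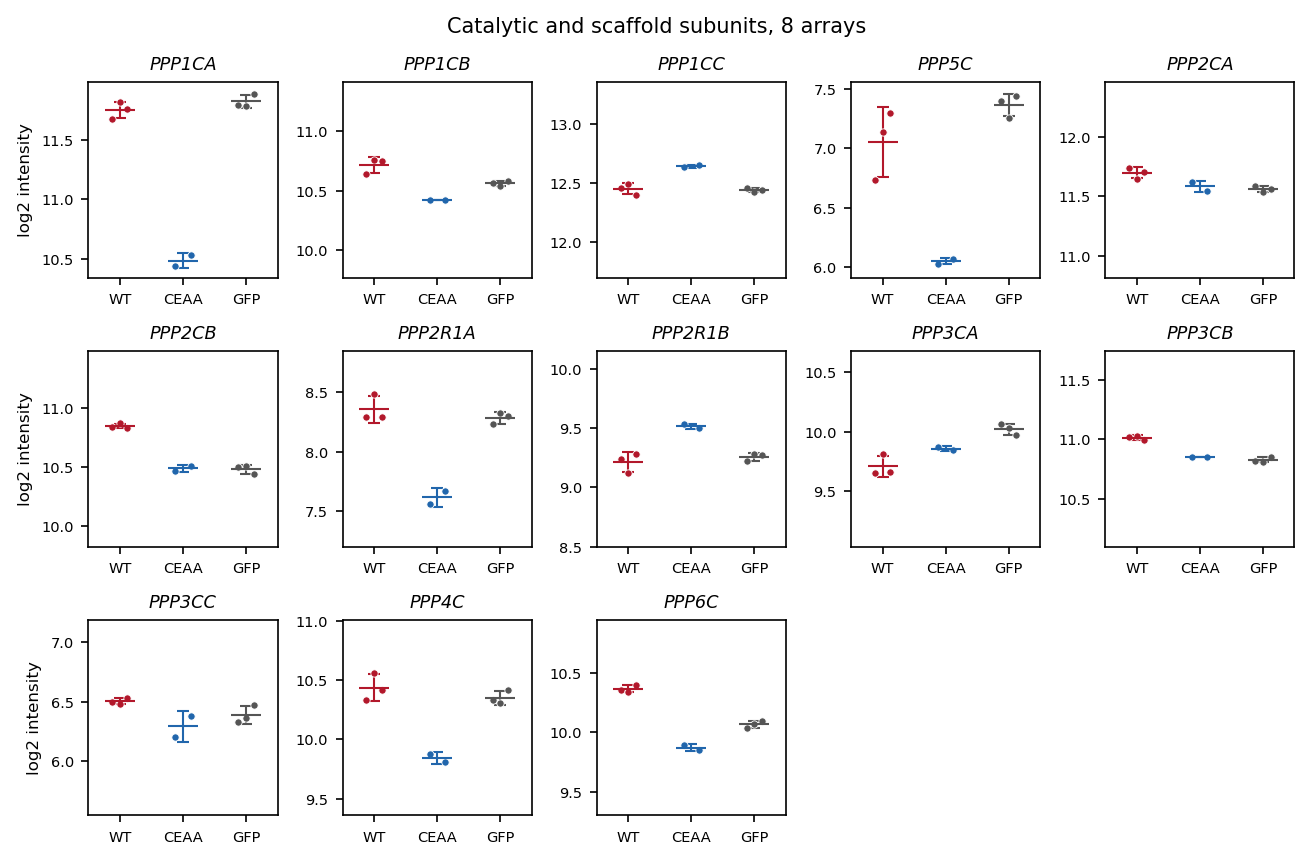
Log2 intensity of the 11 catalytic and 2 PP2A scaffold genes on the 8 arrays. Points are arrays (NR4A1 WT, NR4A1 CEAA, GFP), bars the group mean and SD, and every panel spans the same height. PPP1CA and PPP5C lie lowest with NR4A1 CEAA, at 10.44 to 10.53 and 6.03 to 6.07.

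Of the 2 subunits that direct PP1 to the translation factor eIF2, 1 was higher after NR4A1 WT (50%, beside 9.97% of all genes). The difference between the 2 genes was not tested. PPP1R15A encodes GADD34, the inducible subunit that restores translation after stress. It read 7.72, 7.96 and 7.60 with NR4A1 WT, 6.92 and 6.95 with NR4A1 CEAA and 7.18, 7.30 and 7.31 with GFP. The order was NR4A1 WT, GFP, NR4A1 CEAA without overlap. PPP1R15A rose after NR4A1 WT by 0.50 over GFP (SE 0.09, adjusted p = 0.0057) and stood 0.83 above NR4A1 CEAA (SE 0.10, adjusted p = 0.000507). The difference of NR4A1 CEAA from GFP was -0.33 (adjusted p = 0.0569). Its other probe set gave 0.48, -0.25 and 0.73 in these comparisons, where limma over all probe sets gave adjusted p = 0.00464, 0.0963 and 0.000518. PPP1R15B, which encodes the constitutive counterpart CReP, read 10.05, 9.95 and 10.04 with NR4A1 WT, 10.18 and 10.11 with NR4A1 CEAA and 9.96, 10.01 and 9.90 with GFP. It passed in none of the 3 comparisons, with differences of 0.06, 0.19 and -0.13 (SE 0.06 each).

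Of the 5 myosin-targeting subunits, 2 were higher and 1 lower after NR4A1 WT (40% and 20%, beside 9.97% and 10.3% of all genes). After NR4A1 CEAA, 2 were lower (40%, beside 12.1%). PPP1R12C, the myosin-binding subunit MBS85, read 8.53, 8.73 and 8.68 with NR4A1 WT, 8.01 and 8.06 with NR4A1 CEAA and 8.32, 8.46 and 8.35 with GFP. It was thus above GFP in all NR4A1 WT arrays and below it in both NR4A1 CEAA arrays. The differences were 0.27 (SE 0.07, adjusted p = 0.0254) and -0.34 (SE 0.08, adjusted p = 0.0178), and NR4A1 WT exceeded NR4A1 CEAA by 0.61 (SE 0.08, adjusted p = 0.000554). The first call ended without GFP replicate 1 or 3 or NR4A1 WT replicate 2 or 3 (adjusted p up to 0.0912), the second without GFP replicate 2 or either NR4A1 CEAA array (up to 0.119), and none of the 2 other probe sets passed.

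PPP1R15A and PPP1R12C, both higher after NR4A1 WT, are 2 of the 4 members whose promoter window holds the palindrome TGACGTCA, the full cAMP response element (CRE). Their windows are shown for that shared element, which is in capitals. They run 250 bases upstream to 50 bases downstream of the annotated start and are from RefSeq on GRCh38.p14, chr19:48872171-48872470 on the plus strand for PPP1R15A and chr19:55117588-55117887 on the minus strand for PPP1R12C.
PPP1R15A: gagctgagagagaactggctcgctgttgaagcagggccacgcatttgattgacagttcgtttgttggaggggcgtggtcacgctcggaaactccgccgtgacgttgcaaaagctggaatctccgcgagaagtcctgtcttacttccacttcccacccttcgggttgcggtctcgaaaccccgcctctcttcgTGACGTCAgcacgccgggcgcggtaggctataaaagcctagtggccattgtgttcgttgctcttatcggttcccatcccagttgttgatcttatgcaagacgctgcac
PPP1R12C: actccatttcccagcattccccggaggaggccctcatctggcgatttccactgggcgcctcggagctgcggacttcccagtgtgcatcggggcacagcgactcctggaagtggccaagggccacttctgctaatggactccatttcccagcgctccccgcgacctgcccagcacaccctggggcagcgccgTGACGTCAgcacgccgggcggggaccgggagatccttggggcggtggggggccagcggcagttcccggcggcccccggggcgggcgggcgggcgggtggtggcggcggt
The element begins 58 bases before the start in PPP1R15A and 59 bases before it in PPP1R12C. The other members with it are PPP2CA and PPP2R2D, whose followed probe sets passed in none of the comparisons. It was found in 4 of 84 windows of members (58 genes), beside 1.85% of the 35116 promoter windows of all genes. A match is a description of letters and not of a bound factor.

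PPP1R16A, the myosin phosphatase subunit MYPT3, was low after both RNAs. It read 6.80, 6.96 and 6.68 with NR4A1 WT, 6.42 and 6.64 with NR4A1 CEAA and 7.07, 7.33 and 7.19 with GFP. Every NR4A1 array lay below every GFP array, by -0.38 (SE 0.10, adjusted p = 0.0289) after NR4A1 WT and -0.66 (SE 0.11, adjusted p = 0.0061) after NR4A1 CEAA. The first call ended without GFP replicate 2 or 3 or NR4A1 WT replicate 1 or 3 (adjusted p up to 0.0973), and the second without NR4A1 CEAA replicate 1 (adjusted p = 0.061). The difference between the NR4A1 groups, 0.28, did not pass (adjusted p = 0.1). PPP1R12A, which encodes the main myosin phosphatase subunit MYPT1 and is outside the rule for named genes, was higher by 0.19 after NR4A1 WT (adjusted p = 0.0425), but leaving out any single array other than NR4A1 WT replicate 2 ended that call (adjusted p up to 0.113).

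Among the 9 genes grouped here as PP1 inhibitors, 1 was lower after NR4A1 WT (11.1%, beside 10.3% of all genes). After NR4A1 CEAA, 1 was lower as well (11.1%, beside 12.1%). The inhibitor 2 relative PPP1R2C was counted with the other PP1 partners. PPP1R14A, the myosin phosphatase inhibitor CPI-17, read 5.67, 5.49 and 5.64 with NR4A1 WT, 6.05 and 6.05 with NR4A1 CEAA and 6.22, 6.07 and 6.12 with GFP. The NR4A1 WT arrays stood apart below all others. PPP1R14A fell by 0.54 after NR4A1 WT (SE 0.07, adjusted p = 0.000781) and was 0.45 lower than after NR4A1 CEAA (log2 difference -0.45, adjusted p = 0.00219), while NR4A1 CEAA differed from GFP by -0.09 (adjusted p = 0.478). PPP1R14B, a related inhibitor, read 11.02, 11.14 and 11.02 with NR4A1 WT, 10.81 and 10.86 with NR4A1 CEAA and 11.22, 11.20 and 11.31 with GFP. The groups did not overlap, with GFP the highest. Its difference after NR4A1 CEAA was -0.40 (SE 0.06, adjusted p = 0.00507, and 0.0507 without NR4A1 CEAA replicate 1), and after NR4A1 WT -0.19 (adjusted p = 0.0588). The 0.22 between the NR4A1 groups passed (adjusted p = 0.0337) but not without GFP replicate 1, NR4A1 WT replicate 2 or either NR4A1 CEAA array (adjusted p up to 0.174).

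PPP1R7 encodes SDS22, a conserved partner of PP1 in the nucleus. It read 9.24, 9.39 and 9.28 with NR4A1 WT, 8.45 and 8.46 with NR4A1 CEAA and 9.06, 8.97 and 9.08 with GFP. The 3 groups were fully separate, NR4A1 WT above GFP and NR4A1 CEAA below it. PPP1R7 was higher by 0.27 after NR4A1 WT (SE 0.06, adjusted p = 0.014, and 0.0563 without GFP replicate 2) and lower after NR4A1 CEAA (-0.58, SE 0.07, adjusted p = 0.00148), and the direct difference was 0.85 (SE 0.07, adjusted p = 5.87e-05). Of its 2 other probe sets, the brighter one gave 0.27, -0.35 and 0.62 and passed in all 3 comparisons (limma across all probe sets, adjusted p = 0.0259, 0.0153 and 0.000443), and the dimmer one passed in none.

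Of the 13 other PP1 partners, 1 was higher and 3 lower after NR4A1 WT (7.69% and 23.1%, beside 9.97% and 10.3% of all genes). After NR4A1 CEAA, 2 were lower (15.4%, beside 12.1%). PPP1R18, or phostensin, which binds actin filaments, read 10.73, 10.70 and 10.70 with NR4A1 WT, 10.33 and 10.37 with NR4A1 CEAA and 10.85, 10.88 and 10.93 with GFP. Both NR4A1 groups were below GFP without overlap, and NR4A1 CEAA was the lower one. The differences were -0.18 (SE 0.05, adjusted p = 0.0322) and -0.54 (SE 0.05, adjusted p = 0.000917), and 0.36 between the NR4A1 groups (adjusted p = 0.00123). The call after NR4A1 WT ended without any 1 of the 8 arrays (adjusted p = 0.0504 to 0.113). PPP1R35, a protein of the centriole, read 9.32, 9.47 and 9.38 with NR4A1 WT, 8.78 and 8.78 with NR4A1 CEAA and 9.32, 9.23 and 9.26 with GFP, a difference of -0.49 after NR4A1 CEAA (SE 0.06, adjusted p = 0.00217) and of 0.61 between the NR4A1 groups (SE 0.06, adjusted p = 0.000209). PPP1R21, a protein of endosomes, read 8.25, 8.20 and 8.21 with NR4A1 WT, 8.05 and 8.06 with NR4A1 CEAA and 7.85, 7.85 and 7.97 with GFP. Only the rise after NR4A1 WT passed (0.33, SE 0.05, adjusted p = 0.003), although the NR4A1 CEAA arrays also lay above GFP (0.17, adjusted p = 0.0886). The other, dimmer probe set of PPP1R21 gave 0.29 after NR4A1 WT (adjusted p = 0.162) and -0.09 after NR4A1 CEAA (adjusted p = 0.719).

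Smaller or dimmer changes completed the PP1 group. PPP1R9B, the scaffold spinophilin, differed from GFP by -0.25 after NR4A1 WT (adjusted p = 0.0372) and by -0.24 after NR4A1 CEAA (adjusted p = 0.0654). Its call ended without GFP replicate 1 or 2, NR4A1 WT replicate 2 or 3 or either NR4A1 CEAA array (adjusted p up to 0.121). The other, dim probe set of PPP1R9B gave 0.06 after NR4A1 WT (adjusted p = 0.866), and the mean of all probe sets -0.09 (adjusted p = 0.529). PPP1R2C, a relative of inhibitor 2 counted with the other PP1 partners, was lower after NR4A1 WT (-0.36, adjusted p = 0.0398). Its means were 4.10 ± 0.12 with NR4A1 WT, 4.16 ± 0.26 with NR4A1 CEAA and 4.46 ± 0.06 with GFP (SD, n = 3, 2 and 3). These levels were below the array medians, and the call ended without any 1 of the GFP arrays or NR4A1 WT replicate 1 or 2 (adjusted p up to 0.12). PPP1R3D, which targets PP1 to glycogen, was lower with NR4A1 WT than with NR4A1 CEAA (-0.35, SE 0.06, adjusted p = 0.00301), as was its other probe set (-0.66, adjusted p = 0.00441). That other probe set also lay above GFP after NR4A1 CEAA (0.53, adjusted p = 0.0222). The probe sets followed for the 6 glycogen-targeting genes passed in no comparison with GFP, while a dim one of PPP1R3B, with a mean of 4.18, gave -0.34 after NR4A1 WT (adjusted p = 0.0269). Outside the rule for named genes, the inhibitors PPP1R11 and PPP1R1C and the nuclear partner PPP1R10 were higher after NR4A1 WT than after NR4A1 CEAA by 0.26, 0.38 and 0.25. PPP1R1C read 4.12 to 4.70 on all arrays, below the array medians. The PPP1R10 difference had the opposite sign, with a call, on its other probe set, and leaving out NR4A1 CEAA replicate 1 ended each of these 3 calls (adjusted p = 0.063, 0.089 and 0.101), as did NR4A1 CEAA replicate 2 for PPP1R1C and PPP1R10 (0.0776 and 0.0622).

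**Figure D3:**
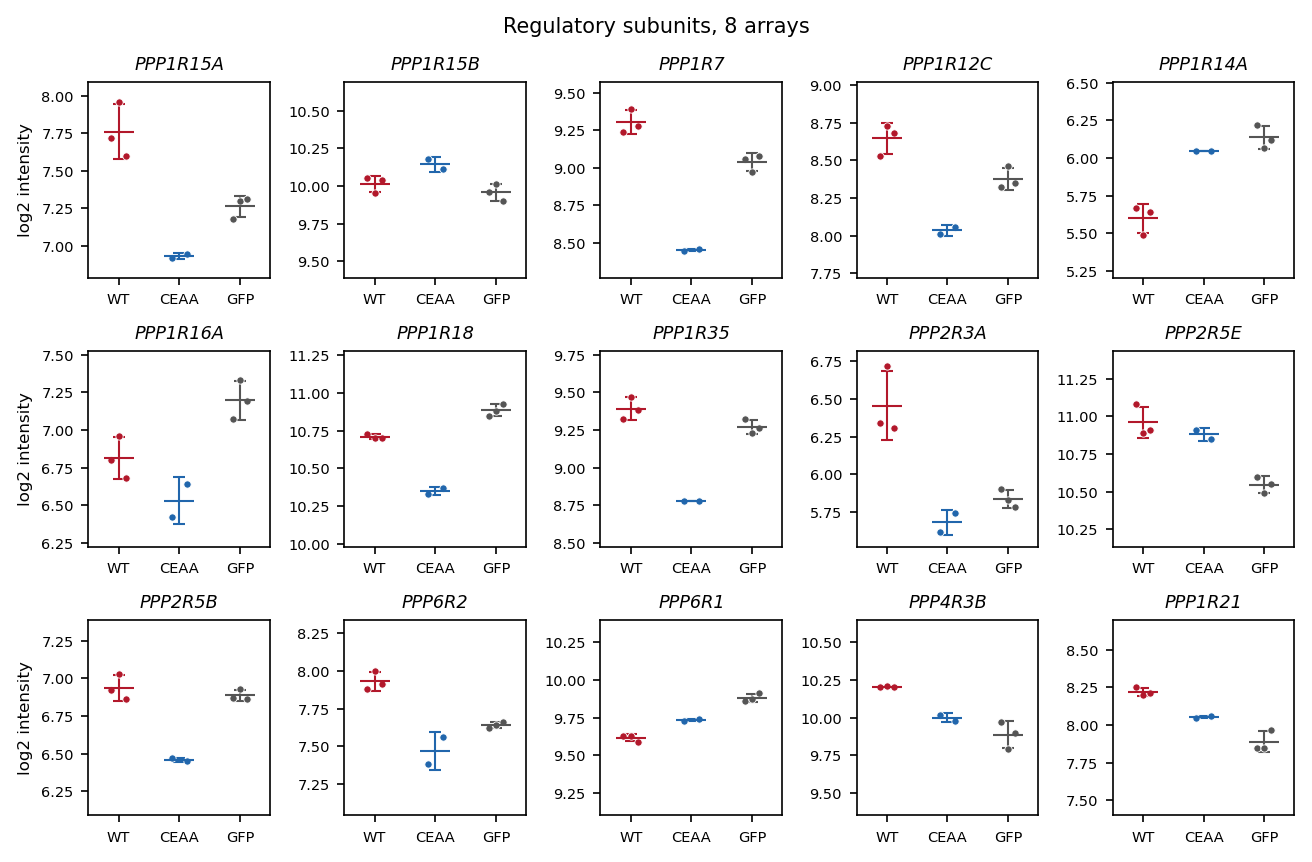
Log2 intensity of 15 regulatory subunit genes on the 8 arrays. Points are arrays (NR4A1 WT, NR4A1 CEAA, GFP), bars the group mean and SD, and every panel spans the same height. PPP1R15A and PPP1R7 lie above GFP with NR4A1 WT, at 7.60 to 7.96 and 9.24 to 9.39, and below it with NR4A1 CEAA, where of these 2 only PPP1R7 passed the test against GFP.

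In the PP2A core, 1 of the 4 genes was higher after NR4A1 WT (25%, beside 9.97% of all genes). After NR4A1 CEAA, 1 was higher and 1 lower (25% each, beside 7.14% and 12.1%). PPP2CB, the beta catalytic subunit, read 10.84, 10.87 and 10.83 with NR4A1 WT, 10.47 and 10.51 with NR4A1 CEAA and 10.50, 10.51 and 10.44 with GFP. The NR4A1 WT arrays were above all others, by 0.36 over GFP (SE 0.05, adjusted p = 0.00102) and 0.35 over NR4A1 CEAA (SE 0.05, adjusted p = 0.00137). The other, dim probe set of PPP2CB gave -0.05 against GFP (adjusted p = 0.783). PPP2CA, the alpha catalytic subunit, read 11.74, 11.65 and 11.71 with NR4A1 WT, 11.62 and 11.55 with NR4A1 CEAA and 11.59, 11.54 and 11.56 with GFP. Its difference of 0.14 after NR4A1 WT did not pass (SE 0.05, adjusted p = 0.101). The probe sets of PPP2CA disagreed, since the dimmest one, with a mean of 5.21, lay below GFP after NR4A1 WT (-0.35, adjusted p = 0.044) and further below NR4A1 CEAA (-0.69, adjusted p = 0.00167).

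PPP2R1A encodes the main PP2A scaffold. It read 8.29, 8.49 and 8.29 with NR4A1 WT, 7.56 and 7.67 with NR4A1 CEAA and 8.23, 8.33 and 8.30 with GFP. Both NR4A1 CEAA arrays were below all others, by -0.67 against GFP (SE 0.08, adjusted p = 0.00169, fold 0.629), and NR4A1 WT exceeded NR4A1 CEAA by 0.74 (SE 0.08, adjusted p = 0.000252). PPP2R1B, the alternative scaffold, read 9.24, 9.12 and 9.28 with NR4A1 WT, 9.53 and 9.50 with NR4A1 CEAA and 9.22, 9.28 and 9.27 with GFP. Here the NR4A1 CEAA arrays were the highest, by 0.26 over GFP (SE 0.06, adjusted p = 0.0261), and NR4A1 WT was lower than NR4A1 CEAA (-0.30, adjusted p = 0.00812). The call against GFP ended without any 1 of the GFP or NR4A1 CEAA arrays (adjusted p up to 0.144), that between the NR4A1 groups without NR4A1 CEAA replicate 1 (0.0597), and none of the 4 other probe sets of PPP2R1B passed.

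Of the 12 variable B-type genes of PP2A, 2 were higher after NR4A1 WT, beside 9.97% of all genes. After NR4A1 CEAA, 1 was higher and 1 lower, beside 7.14% and 12.1% of all genes. PPP2R3A, a calcium-binding B″ subunit, had the largest rise among the 13 members higher after NR4A1 WT. It read 6.34, 6.72 and 6.31 with NR4A1 WT, 5.62 and 5.74 with NR4A1 CEAA and 5.90, 5.83 and 5.78 with GFP. All NR4A1 WT arrays were above all others, by 0.62 over GFP (SE 0.11, adjusted p = 0.00461, fold 1.54) and 0.78 over NR4A1 CEAA (SE 0.12, adjusted p = 0.00166). Both other probe sets of PPP2R3A were also higher against GFP, by 0.61 and 0.54 (limma across all probe sets, adjusted p = 0.00374 and 0.0265).

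PPP2R5E, the epsilon B′ subunit, was the 1 member higher than GFP after both RNAs. It read 11.08, 10.89 and 10.91 with NR4A1 WT, 10.91 and 10.85 with NR4A1 CEAA and 10.60, 10.49 and 10.55 with GFP. Every NR4A1 array lay above every GFP array, by 0.41 for NR4A1 WT (SE 0.07, adjusted p = 0.00289) and 0.34 for NR4A1 CEAA (SE 0.07, adjusted p = 0.016), and the 2 NR4A1 groups overlapped (difference 0.07, adjusted p = 0.503). All 4 other probe sets were higher than GFP after NR4A1 WT, by 0.26 to 0.41, and 3 of the 4 after NR4A1 CEAA. They disagreed between the NR4A1 groups, where 1 was higher with NR4A1 WT (0.37, adjusted p = 0.00511) and 1 lower (-0.30, adjusted p = 0.0175). The call of the probe set followed ended after NR4A1 CEAA without GFP replicate 2 or either NR4A1 CEAA array (adjusted p up to 0.114).

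PPP2R5B, the beta B′ subunit, read 6.92, 7.03 and 6.86 with NR4A1 WT, 6.47 and 6.45 with NR4A1 CEAA and 6.87, 6.93 and 6.86 with GFP. NR4A1 CEAA stood apart below the rest (-0.43 against GFP, SE 0.07, adjusted p = 0.00454, and 0.48 between the NR4A1 groups, adjusted p = 0.000956). Its dimmer probe set passed in neither comparison. Outside the rule for named genes, the B″ gene PPP2R3C and the delta B′ gene PPP2R5D were higher after NR4A1 WT than after NR4A1 CEAA by 0.30 and 0.23, calls that ended without NR4A1 CEAA replicate 1 (adjusted p = 0.0542 and 0.142) and, for PPP2R5D, also without NR4A1 WT replicate 3 (0.05). The probe sets followed for the 4 B subunits PPP2R2A to PPP2R2D passed in no comparison. A dimmer probe set of PPP2R2A, which encodes the alpha B subunit, gave 0.46 for NR4A1 CEAA against GFP (adjusted p = 0.0191) and -0.61 for NR4A1 WT against NR4A1 CEAA (adjusted p = 0.00281).

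**Figure D4:**
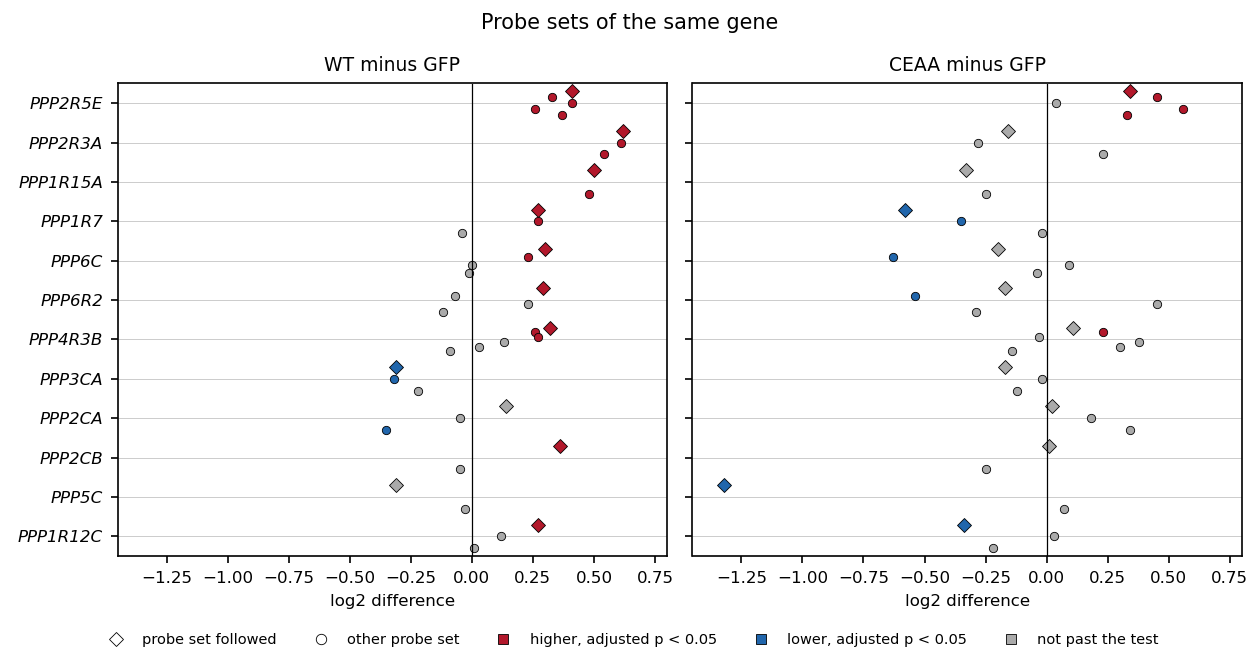
Log2 differences from GFP of every probe set of 12 genes, for NR4A1 WT (left) and NR4A1 CEAA (right), with the probe set followed as a diamond and the others as circles from brightest to dimmest. Colors mark an adjusted p under 0.05 over all probe sets. Under this wider adjustment the followed probe set of PPP6C is grey on the right although it passed over genes, while 1 other is blue. All 5 probe sets of PPP2R5E lie above 0 on the left, whereas PPP5C has 1 of 2 probe sets at -1.32 on the right and the other at 0.07.

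The calcineurin catalytic genes moved in opposite directions after NR4A1 WT. PPP3CA, the alpha form, read 9.65, 9.81 and 9.66 with NR4A1 WT, 9.87 and 9.84 with NR4A1 CEAA and 10.06, 10.03 and 9.97 with GFP. The 3 groups were separate, with NR4A1 WT the lowest, and the difference from GFP was -0.31 (SE 0.06, adjusted p = 0.00718). Of its 2 other probe sets, 1 was lower as well (-0.32, adjusted p = 0.00637). PPP3CB, the beta form, read 11.02, 11.03 and 10.99 with NR4A1 WT, 10.85 and 10.85 with NR4A1 CEAA and 10.82, 10.81 and 10.85 with GFP. The NR4A1 WT arrays were above the rest by 0.19 over GFP (SE 0.05, adjusted p = 0.0225) and 0.16 over NR4A1 CEAA (adjusted p = 0.0459). The first of these calls ended without any 1 of the GFP arrays or NR4A1 WT replicate 1 or 2 (adjusted p up to 0.0794), the second without any 1 of the 8 arrays (0.0643 to 0.161), and the other probe set of PPP3CB passed in neither.

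PPP3CC, the gamma form, read 6.50, 6.48 and 6.53 with NR4A1 WT, 6.20 and 6.38 with NR4A1 CEAA and 6.33, 6.36 and 6.47 with GFP. The NR4A1 WT arrays lay above all others, but it passed in none of the comparisons, with 0.12, -0.10 and 0.22 (SE 0.07 each), while 1 of its 4 other probe sets, a dim one with a mean of 4.74, was lower after NR4A1 CEAA (-0.59, adjusted p = 0.0094). The probe sets followed for the regulatory calcineurin genes PPP3R1 and PPP3R2 passed in no comparison. Another probe set of PPP3R1, with a mean of 8.52, gave -0.35 for NR4A1 CEAA against GFP (adjusted p = 0.0123) and 0.45 for NR4A1 WT against NR4A1 CEAA (adjusted p = 0.00175).

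PPP4C, the PP4 catalytic subunit, read 10.33, 10.56 and 10.42 with NR4A1 WT, 9.88 and 9.81 with NR4A1 CEAA and 10.33, 10.31 and 10.42 with GFP. The NR4A1 CEAA arrays were separate below the overlapping NR4A1 WT and GFP arrays. PPP4C fell by 0.51 after NR4A1 CEAA (SE 0.08, adjusted p = 0.00421) and was 0.59 higher with NR4A1 WT than with NR4A1 CEAA (SE 0.08, adjusted p = 0.00071). PPP4R3B, a PP4 targeting subunit, read 10.20, 10.21 and 10.20 with NR4A1 WT, 10.02 and 9.98 with NR4A1 CEAA and 9.97, 9.79 and 9.90 with GFP. NR4A1 WT was above both other groups. It exceeded GFP by 0.32 (SE 0.06, adjusted p = 0.00519), as did 2 of the 5 other probe sets. The 0.20 over NR4A1 CEAA (adjusted p = 0.0415) did not pass without GFP replicate 3, any 1 of the NR4A1 WT arrays or either NR4A1 CEAA array (adjusted p up to 0.19). PPP4R4, a further PP4 regulator, was lower by 0.35 after NR4A1 WT (log2 difference -0.35, adjusted p = 0.0182) at levels of 3.17 to 3.74 that were below the array medians. Its call ended without GFP replicate 1 or NR4A1 WT replicate 1 or 2 (adjusted p up to 0.0574), and its 2 other probe sets gave 0.07 and 0.18.

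PPP5C, a phosphatase with its regulatory repeats in the same chain, read 6.73, 7.14 and 7.30 with NR4A1 WT, 6.03 and 6.07 with NR4A1 CEAA and 7.40, 7.26 and 7.44 with GFP. Both NR4A1 CEAA arrays were below all others, and NR4A1 WT replicate 3 overlapped GFP. The difference of NR4A1 CEAA from GFP was -1.32 (SE 0.15, adjusted p = 0.00147, fold 0.4), second in size to that of PPP1CA among the members, and that between NR4A1 WT and NR4A1 CEAA was 1.01 (SE 0.15, adjusted p = 0.00128). NR4A1 WT differed from GFP by -0.31 (SE 0.13, adjusted p = 0.156). The other probe set, with a mean of 4.96, gave 0.07 after NR4A1 CEAA (adjusted p = 0.613), so the change of PPP5C was seen on 1 of 2 probe sets.

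After NR4A1 WT, 3 of the 4 PP6 genes were higher and 1 was lower than with GFP (75% and 25%, beside 9.97% and 10.3% of all genes), with the call of PPP6R3 lost without any 1 of the 8 arrays. PPP6C, the catalytic subunit, read 10.36, 10.34 and 10.40 with NR4A1 WT, 9.89 and 9.85 with NR4A1 CEAA and 10.04, 10.07 and 10.10 with GFP. The 3 groups were separate, with NR4A1 WT the highest and NR4A1 CEAA the lowest. PPP6C was higher than GFP by 0.30 after NR4A1 WT (SE 0.05, adjusted p = 0.00291) and differed from it by -0.20 after NR4A1 CEAA (SE 0.05, adjusted p = 0.0331), and the direct difference was 0.50 (SE 0.05, adjusted p = 0.00025). The call after NR4A1 CEAA ended without any 1 of the GFP or NR4A1 CEAA arrays (adjusted p up to 0.168), but the next probe set was lower there by 0.63 (log2 difference -0.63, adjusted p = 0.00066) and higher after NR4A1 WT by 0.23 (adjusted p = 0.0236). The remaining 2 probe sets of PPP6C passed in none of the comparisons.

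The PP6 regulators, which bridge PPP6C to its substrates, were divided. PPP6R2 read 7.88, 8.0 and 7.91 with NR4A1 WT, 7.38 and 7.56 with NR4A1 CEAA and 7.62, 7.64 and 7.66 with GFP. The groups did not overlap. PPP6R2 rose by 0.29 over GFP (SE 0.06, adjusted p = 0.0125) and by 0.46 over NR4A1 CEAA (SE 0.07, adjusted p = 0.00145), while none of its 3 other probe sets passed against GFP after NR4A1 WT. PPP6R1 read 9.63, 9.63 and 9.59 with NR4A1 WT, 9.73 and 9.74 with NR4A1 CEAA and 9.86, 9.87 and 9.91 with GFP. It had the opposite order, with NR4A1 WT the lowest and no overlap, and fell by 0.26 after NR4A1 WT (SE 0.05, adjusted p = 0.00462). PPP6R3, outside the rule for named genes, read 10.04, 10.07 and 10.05 with NR4A1 WT, 9.79 and 9.79 with NR4A1 CEAA and 9.94, 9.88 and 9.83 with GFP. The NR4A1 WT arrays were the highest. The 0.17 over GFP (adjusted p = 0.0453) did not hold without any 1 of the 8 arrays (0.0541 to 0.151), whereas the 0.26 over NR4A1 CEAA (adjusted p = 0.00771) did, although 1 of its 2 other probe sets was higher and 1 lower in that comparison.

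The windows of PPP6C, PPP6R3, PPP6R1 and PPP4C are shown because each holds CCGGAA, a core that ETS factors are known to bind, and because it is found both in PPP6C and PPP6R3, higher after NR4A1 WT, and in PPP6R1, lower after it. Capitals mark CCGGAA or its reverse complement TTCCGG. The windows lie at chr9:125189754-125190053 on the minus strand (PPP6C), chr11:68460502-68460801 on the plus strand (PPP6R3), chr19:55258968-55259267 on the minus strand (PPP6R1) and chr16:30075744-30076043 on the plus strand (PPP4C) of GRCh38.p14, from RefSeq.
PPP6C: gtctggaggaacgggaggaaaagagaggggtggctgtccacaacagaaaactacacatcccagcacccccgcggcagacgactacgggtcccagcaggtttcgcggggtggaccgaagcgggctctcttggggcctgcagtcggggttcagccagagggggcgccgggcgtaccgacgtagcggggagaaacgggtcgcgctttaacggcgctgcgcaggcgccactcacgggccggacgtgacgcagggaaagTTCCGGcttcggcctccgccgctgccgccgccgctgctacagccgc
PPP6R3: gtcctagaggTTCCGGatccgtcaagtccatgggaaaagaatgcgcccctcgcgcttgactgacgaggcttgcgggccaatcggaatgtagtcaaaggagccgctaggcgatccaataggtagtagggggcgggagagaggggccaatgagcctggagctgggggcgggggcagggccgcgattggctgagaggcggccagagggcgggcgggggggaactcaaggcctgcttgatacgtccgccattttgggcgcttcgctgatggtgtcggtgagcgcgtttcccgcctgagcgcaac
PPP6R1: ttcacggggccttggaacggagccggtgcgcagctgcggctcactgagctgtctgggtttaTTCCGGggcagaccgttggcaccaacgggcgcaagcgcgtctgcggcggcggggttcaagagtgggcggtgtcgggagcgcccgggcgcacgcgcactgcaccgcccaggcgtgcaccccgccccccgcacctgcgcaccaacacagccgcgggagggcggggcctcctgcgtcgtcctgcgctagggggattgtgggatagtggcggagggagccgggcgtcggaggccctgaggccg
PPP4C: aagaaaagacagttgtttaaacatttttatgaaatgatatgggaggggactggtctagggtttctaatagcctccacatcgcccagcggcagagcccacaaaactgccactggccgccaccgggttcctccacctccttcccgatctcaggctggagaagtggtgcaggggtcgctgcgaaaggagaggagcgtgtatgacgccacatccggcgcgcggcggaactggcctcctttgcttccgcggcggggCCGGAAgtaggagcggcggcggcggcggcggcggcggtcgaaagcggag
The match begins 4 bases after the start in PPP6C, 240 bases before it in PPP6R3, 189 bases before it in PPP6R1 and 1 base after it in PPP4C, where it continues to the longer CCGGAAGT. Both strands were searched. CCGGAA was found in windows of 19 of the 58 members that had a window (20 of 84 windows), and in 17.2% of the 35116 windows of all genes. The longer CCGGAAGT, each copy of which contains CCGGAA, was found for PPP1R11 and PPP4C (2 of 84 windows) and in 4.14% of all windows. AAAGGTCA, the NBRE that NR4A receptors bind as monomers, was found for PPP1R14D (1 of 84 windows), which passed in none of the comparisons. It was found in 1.22% of all windows.

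The length of the annotated gene differed between calls. The 12 members lower after NR4A1 CEAA spanned a median of 20.5 kb, the 3 higher ones 78.4 kb and the 58 others 46.8 kb. Over all genes the same order was seen, with medians of 14.3 kb for those lower, 49.2 kb for those higher and 25.3 kb for the rest. For NR4A1 WT the medians over members were 20.5 kb for the 8 lower, 70.3 kb for the 13 higher and 35.7 kb for the others, beside 26.2, 41.0 and 23.1 kb over all genes. Between the NR4A1 groups, the 4 members lower with NR4A1 WT spanned a median of 19.8 kb and the 24 higher ones 30.9 kb. The others spanned 53 kb. Over all genes the medians were 39.6 kb for those lower, 20.5 kb for those higher and 23.4 kb for the rest. In this comparison the order of lower and higher genes was thus the reverse of that among members. All these medians are given without a test.

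Known partners and inhibitors of these phosphatases moved in both directions. Of 31 measured of 32 listed, 5 rose and 8 fell after NR4A1 WT relative to GFP (16.1% and 25.8%, beside 9.97% and 10.3% of all genes). After NR4A1 CEAA 7 were higher and 6 lower (22.6% and 19.4%, beside 7.14% and 12.1%), and 10 were higher and 11 lower with NR4A1 WT than with NR4A1 CEAA (32.3% and 35.5%, beside 18.0% and 13.4%). Without each array in turn 4 of the 5, 6 of the 8, 0 of the 7, 3 of the 6, 7 of the 10 and 5 of the 11 calls were kept. RCAN3, an inhibitor of calcineurin, read 9.38, 9.35 and 9.48 with NR4A1 WT, 8.24 and 8.25 with NR4A1 CEAA and 8.34, 8.27 and 8.25 with GFP. All NR4A1 WT arrays stood about 1 log2 unit above the rest, by 1.12 over GFP (SE 0.06, adjusted p = 7.41e-06) and 1.16 over NR4A1 CEAA (SE 0.06, adjusted p = 1.2e-05), and NR4A1 CEAA did not differ from GFP by more than the spread (-0.04, adjusted p = 0.679). RCAN1, its paralog and outside the rule for named genes, fell by 0.37 after NR4A1 WT relative to GFP (adjusted p = 0.00231) and lay below NR4A1 CEAA (-0.57, adjusted p = 0.000291). NFATC2, a calcineurin substrate, read 6.76, 6.61 and 6.72 with NR4A1 WT, 6.93 and 7.15 with NR4A1 CEAA and 7.35, 7.57 and 7.44 with GFP. The groups did not overlap, with NR4A1 WT the lowest. NFATC2 fell by 0.76 after NR4A1 WT (SE 0.08, adjusted p = 0.000426). Its -0.41 after NR4A1 CEAA (adjusted p = 0.0183) did not hold without GFP replicate 2 or 3 or NR4A1 CEAA replicate 1 (up to 0.143).

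RRP1B, which takes PP1 to the nucleolus, read 10.82, 10.60 and 10.73 with NR4A1 WT, 11.80 and 11.70 with NR4A1 CEAA and 11.41, 11.48 and 11.38 with GFP. It was lowest with NR4A1 WT and highest with NR4A1 CEAA, with differences from GFP of -0.70 (SE 0.07, adjusted p = 0.000242) and 0.33 (SE 0.08, adjusted p = 0.0224), and -1.03 between them (SE 0.08, adjusted p = 5.16e-05). The call after NR4A1 CEAA ended without GFP replicate 1 or 3 or either NR4A1 CEAA array (up to 0.152). PTPA, the activator of PP2A, read 8.03, 8.08 and 8.13 with NR4A1 WT, 7.46 and 7.47 with NR4A1 CEAA and 7.96, 8.01 and 8.04 with GFP. Both NR4A1 CEAA arrays were below the rest (-0.54 against GFP, SE 0.06, adjusted p = 0.0011), as was the PP2A scaffold gene PPP2R1A above.

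Of 30 measured of 31 other serine/threonine phosphatase genes, 5 rose and 3 fell after NR4A1 WT relative to GFP (16.7% and 10%, beside 9.97% and 10.3% of all genes). After NR4A1 CEAA 5 were higher and 7 lower (16.7% and 23.3%, beside 7.14% and 12.1%), and 9 were higher and 5 lower with NR4A1 WT than with NR4A1 CEAA (30% and 16.7%, beside 18.0% and 13.4%). Of these calls 4 of the 5, 1 of the 3, 0 of the 5, 1 of the 7, 3 of the 9 and 4 of the 5 were kept whichever array was left out. PPTC7, a mitochondrial phosphatase, was higher after NR4A1 WT by 0.77 (SE 0.06, adjusted p = 6.15e-05), with means of 11.27 with NR4A1 WT, 10.67 with NR4A1 CEAA and 10.49 with GFP. UBLCP1, a phosphatase of the proteasome, was higher after NR4A1 CEAA by 0.81 (SE 0.15, adjusted p = 0.00819, and 0.0782 without NR4A1 CEAA replicate 1), and PPM1K, the mitochondrial phosphatase of branched-chain ketoacid dehydrogenase, by 0.61 (SE 0.10, adjusted p = 0.00594, and 0.0518 without NR4A1 CEAA replicate 2). PPM1G, a nuclear phosphatase, differed by -0.49 after NR4A1 CEAA (SE 0.06, adjusted p = 0.002). PPM1H, a further relative, was lower with NR4A1 WT than with NR4A1 CEAA (-1.0, SE 0.15, adjusted p = 0.00161), with means of 4.56, 5.56 and 5.05 for NR4A1 WT, NR4A1 CEAA and GFP.

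The probe sets followed for the other 36 members passed in none of the 3 comparisons. Of the 25 of these members with further probe sets, 10 had at least 1 that passed in some comparison. No such count was made over all genes, so the 10 do not set the members apart. Among the 10 were PPP2R5C, which encodes the gamma B′ subunit, and the PP4 regulators PPP4R2 and PPP4R3A. PPP2R5C had 1 such probe set at -0.36 for NR4A1 CEAA against GFP (adjusted p = 0.012) and 1 at 0.31 for NR4A1 WT against GFP (adjusted p = 0.047), and both were higher with NR4A1 WT than with NR4A1 CEAA (0.37 and 0.43). PPP4R2 and PPP4R3A had 1 each that was lower with NR4A1 WT than with NR4A1 CEAA (-0.34 and -0.38, adjusted p = 0.0259 and 0.00336). On the followed probe sets of the 36, the log2 differences ran between -0.27 and 0.31 for NR4A1 WT against GFP, between -0.24 and 0.25 for NR4A1 CEAA against GFP and between -0.29 and 0.31 for NR4A1 WT against NR4A1 CEAA. The mean level of 15 of them was below the median of all values, 4.775, and these were not shown to be above background.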

How the data were processed

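Arrays with NR4A1 WT (3), NR4A1 CEAA (2) and GFP (3) RNA were compared at 6 h. The deposited values are log2 intensities that the authors made by RMA in RMA Express, whose version is not given in the sources used here. Of 54613 probe sets, 41091 with 1 gene symbol in the platform annotation were used (1801 had several, 11721 none), and for each of 19775 genes the probe set with the highest mean was kept. No array was dropped for quality. All groups entered 1 model in limma 3.58.1 (R 4.3.3, lmFit and eBayes, 8.04 degrees of freedom a gene), with Benjamini-Hochberg adjustment over all genes. The difference between the NR4A1 groups was tested in the same model. Rank Product, the methods' test, gives no error of a difference, so it was an alternative (100 permutations, q of 0.05 or less). Others were an intensity trend, array weights, a fit of only 2 groups, leaving out dim probe sets, median centering, another quantile normalization, the replicate number as a block, the mean of all probe sets and each array left out.

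The members and lists were chosen with earlier results of these data known. Named were all catalytic and PP2A scaffold genes, PPP1R15A and PPP1R15B, up to 10 members a direction and comparison with the largest called differences without overlap, and up to 4 related genes a comparison. Others, marked as outside this rule or given for a further probe set, were chosen after their values were seen. Adjusted p-values of other probe sets are over all probe sets. The number of arrays limits the precision.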

Additional observations from a re-analysis of the deposited data

How the results depend on the processing

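With the mean of all probe sets, 4 differences between NR4A1 WT and NR4A1 CEAA had the opposite sign, PPP2CA (-0.27), PPP3CB (-0.01), PPP1R10 (-0.38) and PPP6R3 (-0.01), as had PPP1R10 in NR4A1 CEAA against GFP (0.33). No other difference of the genes named by the rule or marked as outside it, called in either setting, changed sign under the alternatives run. Except for Rank Product, the counts of members that follow stand without the share of all genes under the same setting. They do not tell a shift of the members from a shift of all calls. The 13 members higher after NR4A1 WT became 5 with the mean of all probe sets and 1 with Rank Product. The 8 lower became 0 with Rank Product and 4 to 6 with an array left out, 4 of them without GFP replicate 1, GFP replicate 2 or NR4A1 WT replicate 1. In limma, 32 of the 73 members had an unadjusted p under 0.05 in either direction, beside 6118 of all 19775 genes. The 3 higher after NR4A1 CEAA became 7 with an intensity trend or another quantile normalization, 6 with a filter on dim probe sets, 5 with array weights, 1 with the replicate block and 0 with Rank Product, and ran between 0 and 4 with an array left out, with 0 without GFP replicate 2, NR4A1 CEAA replicate 1 or NR4A1 CEAA replicate 2. The 12 lower there became 20 with an intensity trend and 4 with Rank Product. The 24 higher with NR4A1 WT than NR4A1 CEAA became 3 with Rank Product, and 16 without NR4A1 CEAA replicate 1. With the mean of all probe sets, the calls of PPP1CB, PPP1R11, PPP1R1C, PPP2R3C, PPP2R5D, PPP3CB, PPP4R3B, PPP6R2 and PPP6R3 among these 24 ended. That of PPP1R10 was reversed. The 4 lower became 7 with an intensity trend, 8 with another quantile normalization, 8 with the mean of all probe sets, 0 with Rank Product and 2 to 6 with an array left out, with 2 without NR4A1 CEAA replicate 1.

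The deviations of arrays of one replicate number from their group means had correlations of -0.041 to 0.086. With 2 or 3 arrays a group, these values cannot show whether the numbers mark a pairing, which the labels do not state. With the number as a block the counts were 10 higher and 6 lower after NR4A1 WT, 1 and 11 after NR4A1 CEAA, and 21 and 3 between them. Shares of all genes were not counted for this setting either. With an NR4A1 CEAA array left out, the lone array is assumed to vary like the other groups. The causes of these changes were not tested. Differences of about 0.2 on the log2 scale are near the SD over genes of the difference between 2 arrays of a group, 0.147 to 0.208. The spread of a single gene can be smaller or larger. Calls of about this size, such as those of PPP1CC, PPP3CB and PPP6R3 against GFP, ended when single arrays were left out. They are at the limit of what 2 or 3 arrays a group resolve.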
